A study of Arabidopsis thaliana with 6 samples.

Results

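The 9 ACC synthase genes of *Arabidopsis* (*ACS1*, *ACS2*, *ACS4*, *ACS5*, *ACS6*, *ACS7*, *ACS8*, *ACS9* and *ACS11*) were examined on arrays of seedlings that overexpress a rice transcription factor gene. A probe was taken as a member when its transcript accession belonged to one of these 9 loci, which gave 9 probes, 1 for each gene, of 43603 probes on the array. The probes could be matched to 25433 genes in all. Of the 9 genes, 4 lie on chromosome 4 (*ACS6*, *ACS7*, *ACS8* and *ACS11*). Aerial tissues were taken at 17 days of age, and their RNA went to 3 arrays of the *35S::OsbHLH068* (9) line (OsbHLH068OE in the labels) and 3 arrays of wild-type Col-0, the background in which that line was made. The 35S promoter is active in most plant tissues, a single transgenic line was hybridized, and the level of the rice transcript was not measured here. According to the methods, Cy3-labeled cRNA was pooled before it was hybridized, and they do not say what was combined. The 3 samples of each group are described as biological repeats, and each has 1 scan.

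ACC synthase converts S-adenosylmethionine to 1-aminocyclopropane-1-carboxylic acid (ACC), which ACC oxidase then turns into ethylene, and the ACC synthase step usually limits the rate of ethylene production. The enzymes are sorted by their C-terminal ends. Type I enzymes (ACS1, ACS2 and ACS6) can be phosphorylated by the kinases MPK3 and MPK6, which keeps them from being degraded. Type II enzymes (ACS4, ACS5, ACS8, ACS9 and ACS11) are bound by ETO1 and its paralogs EOL1 and EOL2, which deliver them for degradation, and the type III enzyme ACS7 has a short end without those sites. The family is best known for members that are transcribed in response to wounding, touch, pathogens or auxin, so that the set of active genes differs between tissues and conditions.

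The values below are fluorescence signals of 60-base oligonucleotide probes. The sequences of the 3 probes that carried a difference are given so that the transcript stretch behind each value can be seen, 5′ to 3′, with capitals marking the longest run of bases that the probe shares with either of the other two:
*ACS6* probe: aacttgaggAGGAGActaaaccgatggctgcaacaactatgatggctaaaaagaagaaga
*ACS7* probe: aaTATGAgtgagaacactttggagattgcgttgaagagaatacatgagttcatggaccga
*ACS11* probe: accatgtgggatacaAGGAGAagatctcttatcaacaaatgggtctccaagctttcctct
The longest shared run was 6 bases between the *ACS6* and *ACS11* probes and 5 bases between the *ACS7* and *ACS6* probes. The GC content was 41.7% for *ACS6*, 40% for *ACS7* and 43.3% for *ACS11*.

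Across the arrays, the median spot signal was 284 to 322 intensity units in OsbHLH068OE and 311 to 356 in Col-0, and 70.9% to 74.0% of the probe spots were well above background by the scanner software's own flag. Leaf markers such as *RBCS1A* (a Rubisco small subunit) and *CAB1* (a chlorophyll-binding protein) cleared it on every array, 42 of 42 probes. Their summed signal on the log2 scale was 22.6 on the OsbHLH068OE arrays and 22.5 to 22.6 on the Col-0 arrays. Of 8 probes for root markers, 1, for *MYB36*, cleared background on all 6 arrays. *CASP1* cleared it on 2 of 3 OsbHLH068OE arrays and 3 of 3 Col-0 arrays. *COBL9* cleared it on 1 array of each group and *PRP3*, in 1 probe, on 1 Col-0 array. *EXPA7* and *NRT2.1* were above it on none. All 9 probes for flower organ markers were well above background in both groups. The slides cut across the groups, since slide 1 carried replicate 1 of each group and slide 2 carried replicates 2 and 3 of each, so every comparison could also be made within a slide.

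A differentially expressed probe (DEP) was one whose log2-fold change exceeded 1 in size with a limma P, before adjustment, under 0.05. *ACS6*, *ACS7* and *ACS11* were DEPs, all 3 lower in *OsbHLH068*-overexpressing transformants, and none of the 9 ACS probes was a DEP in the other direction. On the whole array, 342 of 43603 probes (0.784%) were DEPs that were lower in the transformants, 168 (0.385%) were higher, and the total in either direction was 510 (1.17%). After Benjamini-Hochberg adjustment over all 43603 probes, 1 of the 9 ACS probes, *ACS11*, had a limma adjusted P under 0.05, against 0.534% of all probes (0.264% lower in the transformants). The median log2-fold change over the 9 ACS probes was −0.16, against 0.02 over all probes. That median was the value of *ACS1*, a probe at background on every array, so it is no measure of a family-wide shift. Of the rest of the family, *ACS2* was well above background on the Col-0 arrays alone, *ACS4* and *ACS8* were weak and showed no called difference, and *ACS1*, *ACS5* and *ACS9* stayed at background in both groups.

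**Figure D1:**
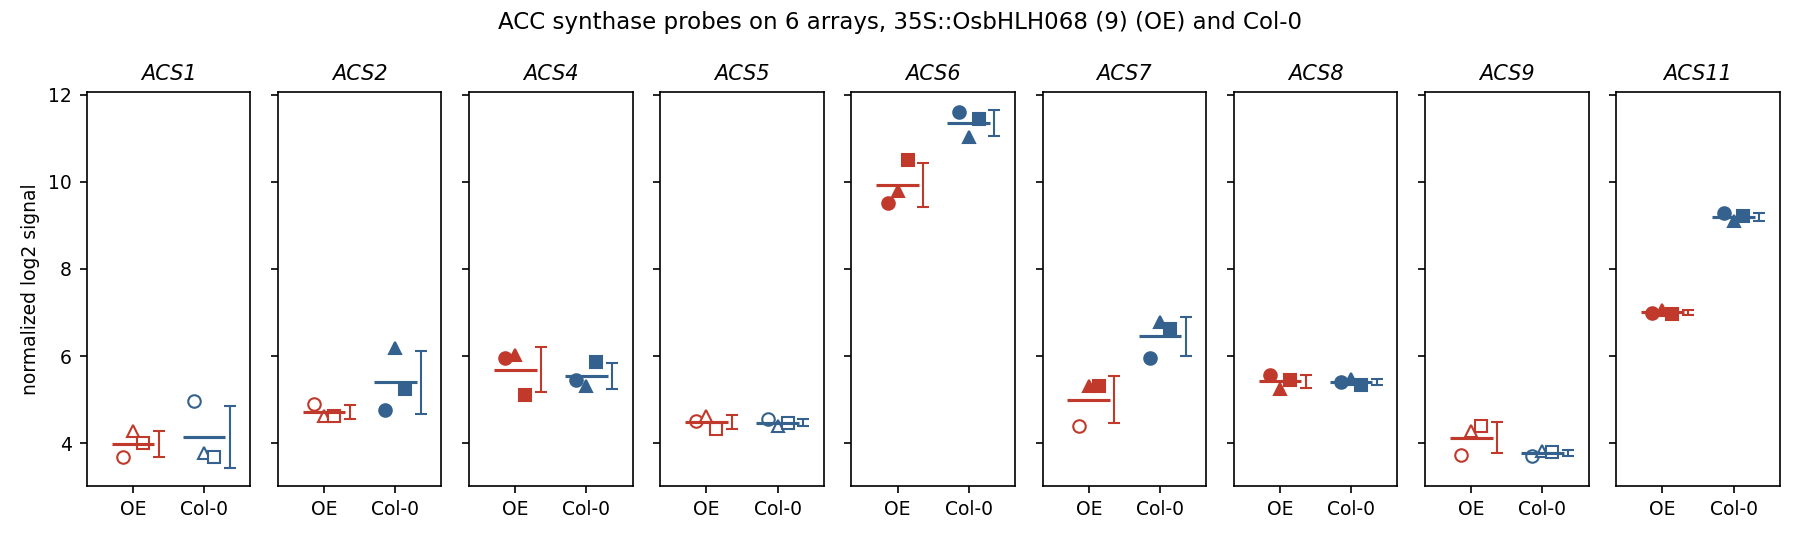
Normalized log2 signal of each ACC synthase probe on the 3 OsbHLH068OE arrays (OE, left in each panel) and the 3 Col-0 arrays. Circles, triangles and squares are replicates 1, 2 and 3, filled where the spot was well above background and open where it was not, and lines and bars give the mean and SD. *ACS6*, *ACS7* and *ACS11* are lower on every OE array than on any Col-0 array, and *ACS1*, *ACS5* and *ACS9* are open symbols throughout.

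*ACS11* (AT4G08040), which encodes a type II enzyme, differed most. Its normalized log2 signals were 6.99, 7.05 and 6.96 in OsbHLH068OE replicates 1, 2 and 3, against 9.28, 9.10 and 9.22 in the Col-0 replicates. The groups lay far apart, and the replicates of each were within a narrow band. The log2-fold change was −2.20 (SE 0.0831, 95% interval −2.40 to −2.0), or 4.60 times lower in the transformants, with a limma adjusted P of 0.00391. Among all 43603 probes it ranked 2 by unadjusted P and 45 by the size of its fall. The difference was also plain before any correction, in median spot signals of 161, 176 and 176 intensity units in OsbHLH068OE and of 711, 663 and 621 units in Col-0, over local backgrounds of 29 to 33.5 units. Within slides, the difference was −2.29 on slide 1 and −2.16 on slide 2.

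*ACS11* remained a DEP under every alternative way of processing, with log2-fold changes from −2.33 to −1.84. Its adjusted P did not stay under 0.05 throughout. It was 0.0503 without OsbHLH068OE replicate 1, 0.0751 without OsbHLH068OE replicate 2 and 0.0527 without Col-0 replicate 3, and it ranged from 0.000299 to 0.118 over all alternatives. As in any bulk tissue, fewer cells with a transcript and less transcript per cell cannot be told apart here.

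*ACS6* (AT4G11280) encodes a type I enzyme and is known as a touch-, wound- and ozone-responsive member of the family. Its log2 signals were 9.51, 9.80 and 10.49 in the OsbHLH068OE replicates and 11.59, 11.02 and 11.45 in the Col-0 replicates. All 3 transformant arrays were below all 3 Col-0 arrays, but the transformants were spread over a range wider than that of Col-0, with replicate 3 the highest. This gave a log2-fold change of −1.42 (SE 0.284, 95% interval −2.11 to −0.73), that is 2.68 times lower, with a limma unadjusted P of 0.00239 and an adjusted P of 0.0958. Its spot signals ran from 688 to 1519 intensity units in OsbHLH068OE and from 2415 to 3291.5 units in Col-0. The difference was −2.09 within slide 1, where each group has a single array, and −1.09 within slide 2. *ACS6* was a DEP under every alternative except a fold threshold of 1.5, with log2-fold changes from −1.70 to −1.09 and adjusted P values from 0.0427 to 0.282.

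*ACS7* (AT4G26200), the type III member, had a dim probe, with signals close to its local background. Its log2 signals were 4.39, 5.31 and 5.31 in the OsbHLH068OE replicates, against 5.95, 6.78 and 6.62 in the Col-0 replicates. The groups did not overlap, and replicate 1 was the lowest array in both of them. The log2-fold change was −1.45 (SE 0.331, 95% interval −2.26 to −0.64), or 2.73 times lower, with a limma unadjusted P of 0.00466 and an adjusted P of 0.116. The spot was well above background on 2 of 3 OsbHLH068OE arrays, replicate 1 being the exception, and on 3 of 3 Col-0 arrays. The spot signals were 72.5, 87 and 84 intensity units in the transformants and 115, 171 and 142 units in Col-0, over backgrounds of 29 to 34 units. The size of the fall depended on the background correction. *ACS7* was no longer a DEP at −0.74, with 50 units as the normexp offset, or at −0.76, with no background correction, and it was at −2.22 with the scanner software's processed signal. Within slides it was −1.56 and −1.39. Its limma adjusted P ranged from 0.0386, with slide as a block, to 0.310, without Col-0 replicate 2.

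**Figure D2:**
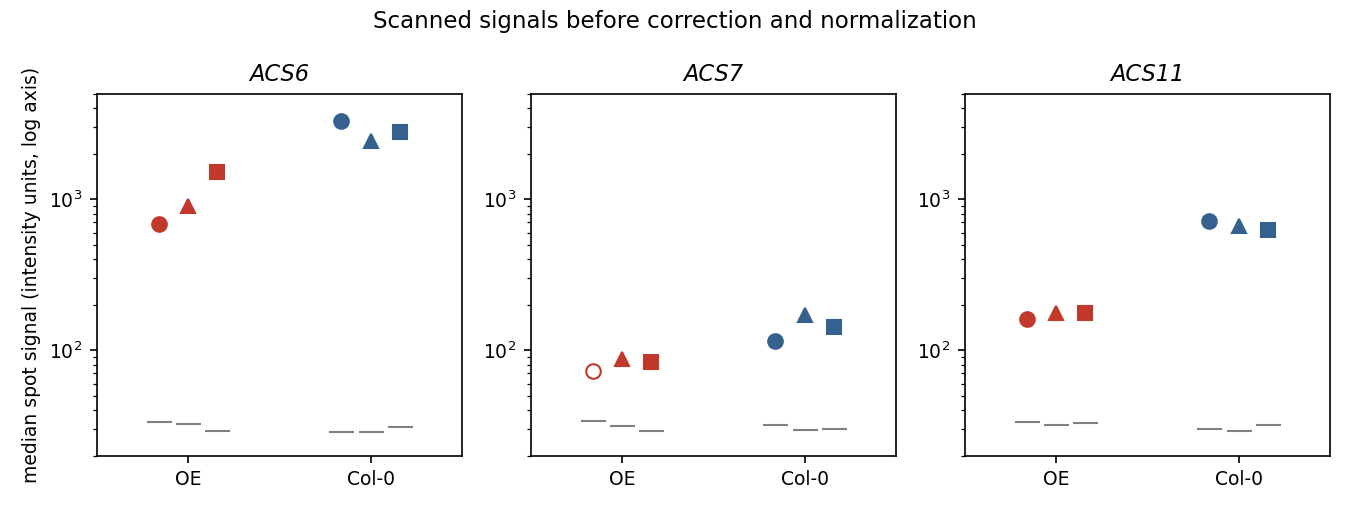
Median spot signal of the *ACS6*, *ACS7* and *ACS11* probes before correction and normalization, in intensity units on a log axis, for OsbHLH068OE (OE, left) and Col-0. Circles, triangles and squares are replicates 1, 2 and 3, the open circle is the spot that was not well above background, and grey dashes are the local background of the same spot. *ACS11* sits at 161 to 176 units in OE and 621 to 711 in Col-0, while *ACS7* stays at 72.5 to 171 units over both groups.

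For *ACS6*, *ACS7* and *ACS11* the exact two-sided permutation test over the 6 arrays gave p = 0.1, the smallest value that 3 arrays against 3 allow. Groups without overlap were common on this array, at 27% of all probes, and 3 of the 9 ACS probes were among them. The 95% intervals of the 3 log2-fold changes overlapped, those of *ACS6* and *ACS7* almost wholly, so these data do not order *ACS6* against *ACS7*. Flower organ markers were not at equal levels in the groups either. The floral regulator *SEP3* had log2-fold changes of −0.78 and −0.91 in its 2 probes, while the carpel and stamen identity gene *AG* had 0.55 and 0.53. In all, 5 of the 9 flower organ probes had an unadjusted P under 0.05, as did 19.8% of all probes, and 0 were DEPs. Their summed log2 signal was 12.8 to 13.3 in OsbHLH068OE and 13.2 to 13.7 in Col-0. The study reports that this line flowers later than Col-0, so the groups may differ in developmental stage at the same age. The part of floral tissue or stage in the ACS differences was not tested.

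*ACS2* (AT1G01480), the other type I gene known for stress-induced ethylene, was close to the limit of detection. Its log2 signals were 4.89, 4.63 and 4.63 in the OsbHLH068OE replicates and 4.76, 6.18 and 5.25 in the Col-0 replicates. Col-0 replicate 2 was the highest by far, and Col-0 replicate 1 lay within the range of the transformants, so the groups overlapped. The spot cleared the background flag on 0 of 3 OsbHLH068OE arrays and on 3 of 3 Col-0 arrays. The transformant level is then only a bound, and *ACS2* was at least 1.60-fold lower by the group means, a difference that did not pass the test (log2-fold change −0.68, SE 0.353, limma adjusted P = 0.337). The slides went different ways, with a difference of 0.13 on slide 1 and −1.09 on slide 2. The log2-fold change was −0.29 without Col-0 replicate 2 and −0.999 without Col-0 replicate 1, and it was −1.18 with the processed signal.

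*ACS4* (AT2G22810) and *ACS8* (AT4G37770), which encode type II enzymes and are known as auxin-responsive genes, were well above background on all 6 arrays but dim. The *ACS4* log2 signals were 5.95, 6.02 and 5.10 in the OsbHLH068OE replicates and 5.45, 5.31 and 5.87 in the Col-0 replicates. Replicate 3 was the lowest of its group in the transformants and the highest in Col-0, and the groups overlapped. The log2-fold change was 0.15 (SE 0.286, limma adjusted P = 0.802), with a 95% interval of −0.55 to 0.85 that leaves room for a moderate change either way. *ACS8* was much tighter, at 5.56, 5.25 and 5.44 in the OsbHLH068OE replicates and 5.41, 5.47 and 5.33 in the Col-0 replicates. Its log2-fold change was 0.01 (SE 0.106, limma adjusted P = 0.958). The 95% interval was −0.25 to 0.27. The *ACS8* spots read 86.5 to 97.5 intensity units, near the 57 to 78 units of the ACS probes at background. A probe this close to background has little room to show a fall. The interval therefore does not set *ACS8* apart from *ACS11*, which encodes an enzyme of the same type. With the processed signal the SE was 0.229, so the width of that interval depends on the treatment of background.

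The remaining members, the type I gene *ACS1* (AT3G61510) and the type II genes *ACS5* (AT5G65800) and *ACS9* (AT3G49700), were not well above background on any array. *ACS5* and *ACS9* are known from mutants whose stabilized enzymes make seedlings overproduce ethylene. The normalized log2 signals of *ACS1* were 3.68 to 4.27 in OsbHLH068OE and 3.68 to 4.96 in Col-0. Those of *ACS5* were 4.31 to 4.63 in OsbHLH068OE and 4.40 to 4.56 in Col-0, and those of *ACS9* were 3.72 to 4.39 in OsbHLH068OE and 3.70 to 3.83 in Col-0. Their spot signals lay between 57 and 78 intensity units on every array. Their folds entered the family median and were not read further.

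**Figure D3:**
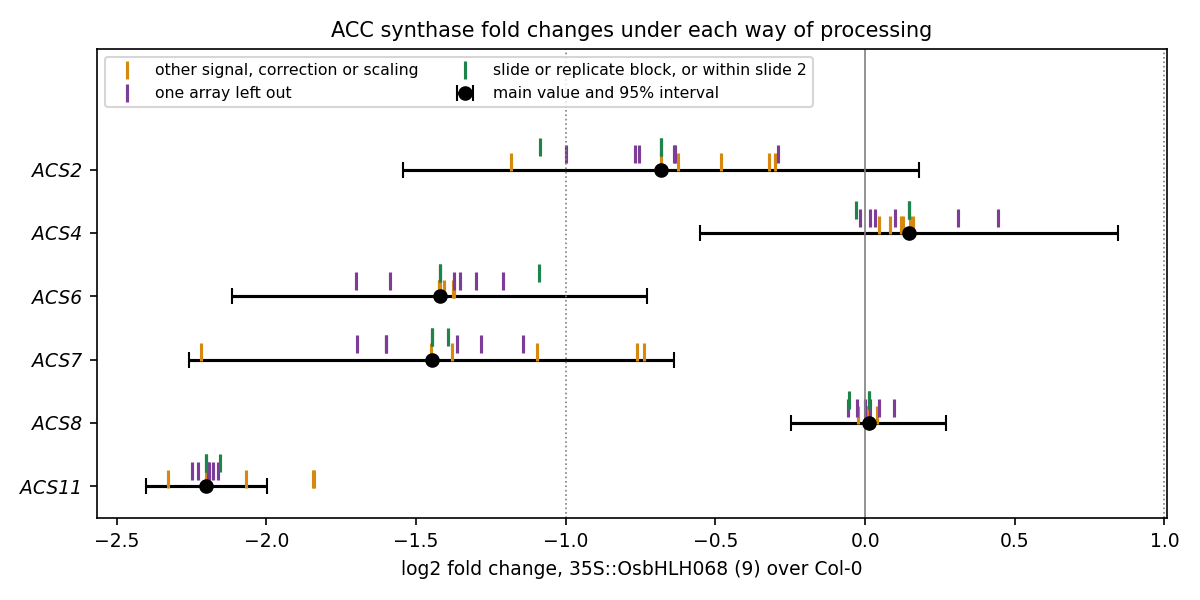
Log2-fold change of OsbHLH068OE over Col-0 for the 6 ACC synthase genes that were well above background in at least 1 group. Black points and bars are the main value and its 95% interval, and coloured ticks are the values under other signals, corrections or scalings, with each array left out in turn, and with a slide or replicate block or within slide 2. The dotted lines mark the fold threshold of 1 on either side of 0. *ACS11* stays between −2.33 and −1.84, whereas *ACS7* moves from −2.22 to −0.74 with the treatment of background.

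The other steps of ethylene synthesis were followed with lists of the genes that feed, compete with, regulate or respond to ACC synthase. Outside the ACS family these lists held 72 probes for 46 of 46 genes. Of these probes, 5, for 3 genes, were DEPs higher in the transformants and 2 were DEPs lower. The shares over all probes were 0.385% and 0.784%, and 19.8% had an unadjusted limma P under 0.05. The median log2-fold change was −0.05 over the 72 probes and 0.02 over all probes. The ACC oxidases, which act directly after ACC synthase, held 0 DEPs and 0 limma P values under 0.05 before adjustment in 8 probes for 5 genes, and the lowest log2-fold change among them was −0.43, for *ACO1*. The enzymes of the Yang cycle, which recover methionine from the other product of ACC synthase, held 0 DEPs in 12 probes, and 1 had an unadjusted limma P under 0.05. All 12 were below 0, down to −0.59 for *ARD3*, as were 20407 of all 43603 probes. The amino acid carriers *LHT1* and *LHT2*, which also move ACC, and *DCD*, whose product can break it down, had log2-fold changes of −0.42 to −0.11.

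S-adenosylmethionine synthetases, which make the substrate of ACC synthase, were above 0 in 12 of 12 probes, with 0 DEPs and 6 unadjusted limma P values under 0.05. Of all 43603 probes, 23196 were above 0, 19.8% had such a P and 27% had groups without overlap. The 12 probes stand for 4 genes, and the 6 low P values all came from *MAT3* and *MAT4*. *SAM1* and *SAM2* were near 0. *MAT3* had log2-fold changes of 0.41, 0.25 and 0.43 in its 3 probes (limma adjusted P 0.132 to 0.264), and the groups did not overlap in 2 of them. *MAT4* had log2-fold changes of 0.69 to 0.90 in its 4 probes (limma adjusted P 0.178 to 0.249, and 0.0485 in 1 probe with slide as a block). Its groups were without overlap in 1 of those 4 probes, at log2 signals of 11.74, 11.35 and 10.81 in the OsbHLH068OE replicates and 10.79, 10.12 and 10.30 in the Col-0 replicates. *ACS10* and *ACS12*, relatives of the family that encode aminotransferases and not ACC synthases, had log2-fold changes from −0.28 to −0.10 with 0 DEPs and 2 unadjusted limma P values under 0.05 in 3 probes.

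**Figure D4:**
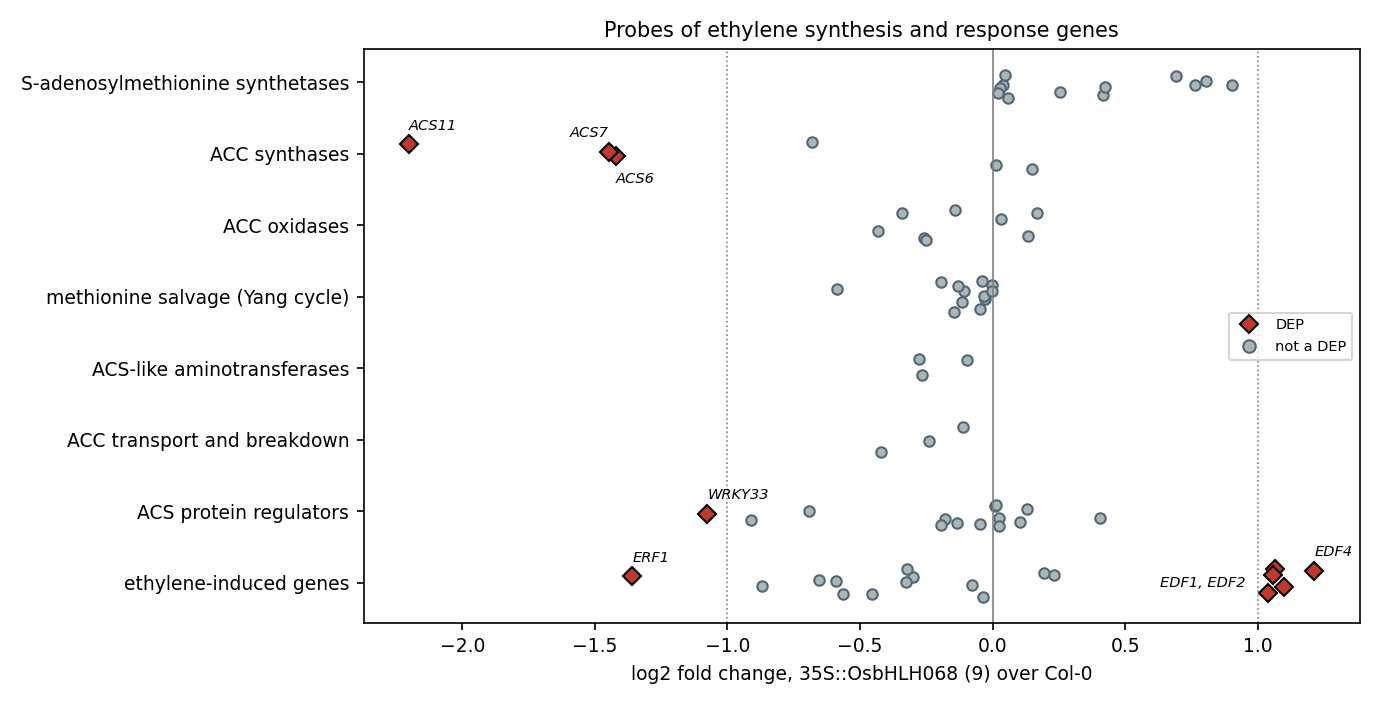
Log2-fold change of OsbHLH068OE over Col-0 for each probe of the ethylene synthesis and response lists, 1 row per list, with points spread vertically for legibility. Diamonds are DEPs, circles are other probes, dotted lines mark the fold threshold of 1, and probes not well above background on any array are left out. Among the rows for synthesis, diamonds appear in that of the ACC synthases alone, at −2.20, −1.45 and −1.42.

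Among 12 genes whose products regulate ACC synthase, 1 of 15 probes was a DEP, 4 had an unadjusted limma P under 0.05 and 0 had an adjusted P under 0.05. The shares over all probes were 1.17%, 19.8% and 0.534%. The DEP was *WRKY33*, a transcription factor known to bind the *ACS2* and *ACS6* promoters and to be phosphorylated by MPK3 and MPK6. Its log2 signals were 9.84, 10.51 and 11.09 in the OsbHLH068OE replicates and 11.20, 11.60 and 11.87 in the Col-0 replicates, a log2-fold change of −1.08 (SE 0.341, limma adjusted P = 0.181). In both groups replicate 1 was the lowest array and replicate 3 the highest. *WRKY33* was no longer a DEP without OsbHLH068OE replicate 1 (−0.75), without Col-0 replicate 3 (−0.92), without Col-0 replicate 2 (−1.05, limma adjusted P = 0.395), within slide 2 (−0.93) or by the methods' t-test.

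The kinase gene *MPK3* had log2 signals of 10.75, 11.32 and 11.41 in the OsbHLH068OE replicates and 11.76, 12.32 and 12.14 in the Col-0 replicates. Every transformant array was below every Col-0 array, with replicate 1 the lowest in both groups, as for *ACS7*. The log2-fold change was −0.91 (SE 0.226, limma adjusted P = 0.128), and it passed the fold threshold without OsbHLH068OE replicate 3 (−1.04) or without Col-0 replicate 1 (−1.07). *MKK4*, which encodes a kinase acting on MPK3 and MPK6, had a log2-fold change of −0.69 (SE 0.110, limma adjusted P = 0.0683), from 9.68, 9.83 and 9.80 in OsbHLH068OE and 10.32, 10.64 and 10.42 in Col-0. With slide as a block, the limma adjusted P was 0.0404 for *MPK3* and 0.0434 for *MKK4*, and that of *MKK4* ranged from 0.0183 to 0.245 over all alternatives. *MPK6* and *MKK5*, the partners of these genes, had smaller log2-fold changes of −0.18 and −0.19. The genes for the proteins that mark type II enzymes for degradation were not DEPs, with log2-fold changes of 0.02 for *ETO1* and 0.40 for *EOL1*, the highest value of the list. The gene for XBAT32, a ubiquitin ligase of ACS7 and ACS4, had a log2-fold change of 0.01.

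Genes that ethylene is known to induce were called in both directions. Of 19 probes for 11 genes, 5 were DEPs higher in the transformants, for the 3 related transcription factor genes *EDF1*, *EDF2* and *EDF4*. A DEP lower was found in 1 probe, for *ERF1*. Over all probes, 0.385% were DEPs higher and 0.784% were DEPs lower. *EDF4* had log2 signals of 11.72, 11.75 and 11.69 in the OsbHLH068OE replicates and 10.32, 10.49 and 10.71 in the Col-0 replicates. Its log2-fold change was 1.21 (SE 0.115, limma adjusted P = 0.0313), the single adjusted call among the 72 probes of these lists. That call was lost without any one of 5 arrays, the exception being Col-0 replicate 1, with adjusted P values of 0.0378 to 0.208 over the 6 omissions. *EDF1* had a log2-fold change of 1.04 (SE 0.151, limma adjusted P = 0.0591, or 0.0490 with slide as a block), and the 3 *EDF2* probes had 1.06 to 1.1. Both genes were just under the fold threshold without Col-0 replicate 1 or without Col-0 replicate 2, at 0.93 and 0.99 for *EDF1* and at 0.87 to 0.96 for *EDF2*. Within slide 2, *EDF1* (0.91) and 2 of the 3 *EDF2* probes (0.94 and 0.96) were also under it.

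*ERF1*, a direct target of the ethylene signaling factor EIN3 that also responds to jasmonate, went the other way. Its log2 signals were 5.45, 6.20 and 6.58 in the OsbHLH068OE replicates and 6.34, 8.25 and 7.72 in the Col-0 replicates, so that Col-0 replicate 1 lay among the transformants. Its log2-fold change was −1.36 (SE 0.541, limma adjusted P = 0.244). It was no longer called without OsbHLH068OE replicate 1 or 2 or without Col-0 replicate 2 or 3 (−1.42 to −0.95), with a normexp offset of 50 (−0.95), with no background correction (−0.99) or by the methods' t-test. Receptor genes that ethylene induces were below 0 and not DEPs. *ERS2* had log2-fold changes of −0.66 and −0.57 in the 2 probes that were above background, with limma adjusted P values of 0.0665 and 0.0649, and *ETR2* had −0.59 in one probe and −0.30 in the other. *EBF2*, which encodes an F-box protein that removes EIN3, had −0.08 and −0.04.

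**Figure D5:**
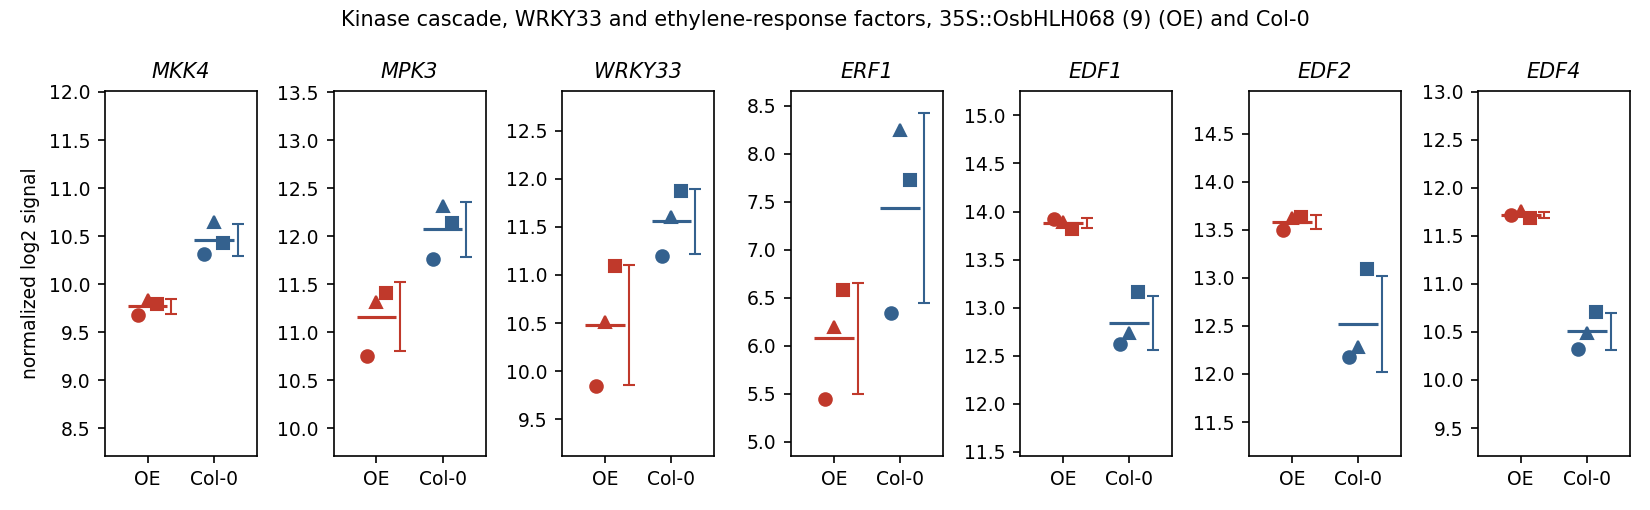
Normalized log2 signal of *MKK4*, *MPK3*, *WRKY33*, *ERF1*, *EDF1*, *EDF2* (1 of 3 probes) and *EDF4* on the OsbHLH068OE arrays (OE, left in each panel) and the Col-0 arrays. Circles, triangles and squares are replicates 1, 2 and 3, lines and bars give the mean and SD, and every axis spans the same log2 range. The first 4 genes have lower means in OE, with overlap for *ERF1*, and the *EDF* genes are higher on every OE array than on any Col-0 array.

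The members were also set against each other and against the rest of the array by the shape of their 6 values. Pearson's r over the 6 arrays was 0.907 between *ACS6* and *ACS11*, 0.864 between *ACS7* and *ACS11* and 0.836 between *ACS6* and *ACS7*. These values rest on 6 points that share the split between the groups, and they are a description. Among 27068 probes that were above background on every array of a group and had a gene name, the profile most like *ACS11* was that of the wall-associated kinase-like gene *WAKL2* (r = 0.998), followed by *KAPP* (r = 0.996) and AT5G18525 (r = 0.995). *WAKL2* had a log2-fold change of −0.92 and a limma adjusted P of 0.0279. The profile most like *ACS7* was that of *MPK3* (r = 0.998), then *RDR1*, an RNA-dependent RNA polymerase gene (r = 0.997), and *BCAT-1*, a branched-chain amino acid transaminase gene (r = 0.996). Those most like *ACS6* were AT1G68220, AT5G65687 and AT5G18150, with r of 0.9997, 0.998 and 0.998 and log2-fold changes of −0.19, −0.32 and −0.50. These 9 genes were picked as the closest of 27068 probes over 6 arrays, where an r near 1 comes with the picking. A link between them and the members was not tested. The *ACS7* value of OsbHLH068OE replicate 1 also came from a spot not well above background. Of these 9 genes, 0 were DEPs, against 1.17% of all probes.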

How the data were processed

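Cy3-labeled seedling RNA was measured on Agilent *Arabidopsis* V4 arrays of 1 colour. The intensity values were median spot and local background signals as deposited by the authors from Feature Extraction 10.7.1.1, per the file headers without background subtraction, and the software's processed signal. The log2 values that the authors deposited had been made with limma by normexp correction and quantile normalization. Here limma 3.58.1 in R 4.3.3 was applied to the median signals: normexp (offset 0), the 1417 control spots removed, quantile normalization, spots marked as outliers (4 to 11 per array) left out, and lmFit and eBayes with a constant prior over 43603 probes. For the ACS probes the result differed from the deposited values by at most 0.0103 on the log2 scale. A DEP followed the threshold of the study's methods, and Benjamini-Hochberg adjustment ran over all probes. The main fit gave 510 DEPs, whereas the study reports 568, a number also reached here with an intensity trend without a robust prior.

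Transcript accessions gave a gene for 34358 probes (78.8%) through RefSeq annotation (assembly TAIR10.1), used for names and gene order only. Probe sequences came from the study's supplementary probe list. The *ACS2* signals of the transformants were higher than the lowest signal well above background on each array. The fold given for *ACS2* is therefore the observed value and not a bound. All ACS genes, the list genes with a call or at the ends of a range, and the 3 genes most like each ACS DEP were named. The members and lists were chosen with earlier results of these data known. The alternatives were other background corrections, scalings and signals, the deposited values, a filter on dim probes, intensity trends, the methods' t-test, replicate and slide blocks, slide 2 alone, each array left out and other fold thresholds. The code was tested on simulated data. Same-numbered arrays deviated from their group means with correlations of 0.262, 0.0983 and 0.0128 over probes. The other pairs within slide 2 had 0.126 and 0.136, and pairs across slides had −0.216 to −0.117. Arrays of a slide were thus more alike, but the numbers within slide 2 were not, so the numbers were not treated as pairs. The main fit has no slide term. With slide as a block, 1015 probes had a limma adjusted P under 0.05, against 233 in the main fit.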

Additional observations from a re-analysis of the deposited data

How the results depend on the processing

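The 3 arrays per group and the low signal of most ACS probes over background limit what could be called here. The number of ACS probes that were DEPs was 3 in the main analysis and whenever 1 array was left out (range 3 to 3), 2 with a normexp offset of 50 or with no background correction, 1 at a fold threshold of 1.5, 4 within slide 2, where *ACS2* was added at −1.09, and 3 under every other alternative. The number of ACS probes with an adjusted P under 0.05 was 1 in the main analysis. It was 3 with no background correction, 2 with an offset of 50, with the filter on dim probes, with an intensity trend without a robust prior and with slide as a block, 0 with the methods' t-test and within slide 2, and 0 to 1 with an array left out. Members close to 0 changed sign. *ACS8* was −0.0238 with the processed signal, −0.0549 within slide 2 and −0.0588 to 0.0967 with an array left out, and *ACS4* was −0.0296 within slide 2 and −0.0187 to 0.444 with an array left out.

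In the other ethylene lists, 7 probes were DEPs. There were 6 with a normexp offset of 50 or with no background correction, 5 by the methods' t-test, 3 within slide 2, and 1 to 10 with an array left out, the lowest without Col-0 replicate 2. The number with an adjusted P under 0.05 was 1 in the main analysis, 5 with an offset of 50 or 16, with the filter on dim probes and with either intensity trend, 6 with no background correction, 7 with slide as a block, 0 with the methods' t-test and within slide 2, and 0 to 9 with an array left out, the highest without Col-0 replicate 1. Over all probes, 510 DEPs compared with 320 to 1055 under the alternatives, and 233 adjusted calls compared with 0 (the methods' t-test) to 2726 (without Col-0 replicate 1). The cause of these shifts was not tested.

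With replicate number as a block, 3 ACS probes were DEPs and 0 had an adjusted P under 0.05 (0.118 for *ACS11*), 0 probes of the other lists had one, and 1 probe of the whole array did.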

Other observations

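The genes that flank the ACS loci held 0 DEPs, where 1.17% of all probes were DEPs. With so few probes and so low a share, the count is a description only. Among the 2 nearest protein-coding genes on each side in the RefSeq order, 0 probes were DEPs for *ACS6*, *ACS7* and *ACS11*. The log2-fold changes of OsbHLH068OE over Col-0 were −0.33 to 0.26 in 10 probes around *ACS6*, −0.20 to 0.33 in 6 probes around *ACS7*, where 3 of the 4 neighbors were measured, and −0.49 to 0.32 in 4 probes around *ACS11*. For *ACS11*, 1 of those 4 probes was well above background on all 6 arrays. The neighbors of *ACS2*, *ACS4* and *ACS8* also held 0 DEPs, with log2-fold changes of −0.28 to 0.43. Around *ACS4*, the only neighbor probe well above background on all 6 arrays was that of *SQE2*.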
